A study of Mus musculus with 3 samples.

Results

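The genes of the nuclear lamina and of the LINC complex were examined in RNA sequencing counts of hearts from wild-type C57BL/6J mice, an inbred laboratory strain, collected 9 days after birth. The members were chosen by gene symbol from the deposited table: the lamin genes Lmna, Lmnb1 and Lmnb2, the inner nuclear membrane genes Lbr and Emd, the SUN genes Sun1 and Sun2, and the nesprin genes Syne1, Syne2 and Syne3. All 10 were found among 18038 genes. The 3 hearts form the only group, with no treatment and no second genotype, so every comparison is between genes within a heart or between the hearts themselves. They are called hearts 1, 2 and 3 after the replicate numbers of the labels, and nothing states that each came from a different animal. Every p-value therefore rests on 3 samples, whose spread could be technical. The tests also drew their estimate of spread from other genes.

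Lamins are intermediate filament proteins that form a meshwork under the inner nuclear membrane. The A-type lamins A and C are splice forms of Lmna, whereas Lmnb1 and Lmnb2 encode the B-type lamins. Lbr, the lamin B receptor, and Emd, which encodes emerin, are membrane proteins that tie chromatin and lamins to the inner membrane. The LINC complex spans both nuclear membranes: SUN proteins of the inner membrane bind, in the space between the membranes, the KASH domain at the end of nesprins, whose other parts reach actin, intermediate filaments and microtubule motors outside the nucleus. Mutations of LMNA, EMD and nesprin genes cause muscular dystrophy and cardiomyopathy in humans.

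The study concerns microtubules and the coupling of cardiomyocytes, and nesprins are one of the places where the nucleus meets microtubules. The sequences that encode the SUN-binding end of nesprins are shown first, because each of the 3 nesprin genes has one. Below are the last 60 coding bases of a GENCODE M21 transcript of each gene (GRCm38), with the final 4 codons, which encode the end of the KASH peptide that inserts into the SUN domain, in capitals. They were read from the longest transcript of Syne1 (chr10:5022010-5022069, minus strand), from Syne2 (chr12:76109982-76110041, plus strand) and from Syne3 (chr12:104932168-104932227, minus strand).
Syne1: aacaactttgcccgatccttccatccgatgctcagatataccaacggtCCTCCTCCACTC
Syne2: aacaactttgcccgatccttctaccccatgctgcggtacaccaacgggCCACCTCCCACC
Syne3: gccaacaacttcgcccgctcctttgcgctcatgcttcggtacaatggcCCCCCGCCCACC
In global alignments, Syne1 and Syne2 had 48 identical bases, a share of 80%. Syne2 and Syne3 had 45 (71.4% of the alignment) and Syne1 and Syne3 had 39 (61.9%), each with 6 gap positions. Of the 12 capital bases, 8 were identical between Syne1 and Syne2, 10 between Syne2 and Syne3 and 7 between Syne1 and Syne3.

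The deposited counts are per gene, so lamin A and lamin C reads were not separated.

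Library totals were 17766501, 18643408 and 18768094 counts, and 12958 genes reached 1 CPM (counts scaled to a total of 1000000) in every heart, which is called detected here. Markers of cardiomyocytes, such as Myl2 (26128 ± 998 TPM, SD, n = 3 throughout) and Actc1 (20958 ± 2984 TPM), were the highest of the marker lists. TPM is the deposited FPKM rescaled to 1000000 per heart, a level per transcript length. Endothelial (5 of 5), fibroblast (5 of 5), smooth muscle and pericyte (5 of 5), myeloid (5 of 5), erythroid (4 of 5), adipocyte (4 of 5) and nerve and glia (3 of 5) markers were also detected, and 0 of 5 lymphocyte, 0 of 3 thymus and 0 of 6 lung epithelium markers were detected in every heart. Skeletal muscle markers were detected for 1 of 4, which was Acta1. Heart 1 stood apart in lung markers, with a summed level of 1616 TPM against 0.740 and 6.46 TPM in hearts 2 and 3, nearly all from the airway genes Scgb1a1 (4096, 1 and 13 counts) and Scgb3a2 (1665, 1 and 12 counts). In bulk tissue, fewer cells of a type and less RNA per cell cannot be told apart.

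All 10 members were detected. Together they held 414, 413 and 402 TPM in hearts 1, 2 and 3, or 0.0414%, 0.0413% and 0.0402% of the total. Lamins made up 43.8% ± 0.982 of this sum, the SUN genes 21.1% ± 1.48, Lbr with Emd 19.2% ± 1.05 and the nesprins 15.9% ± 1.02. By read counts rather than level per length, the long nesprin genes held 34.1% ± 2.87 and the lamins 32.2% ± 1.32. The mean level of 7 members lay above the median of all detected genes, 19.1 TPM.

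**Figure D1:**
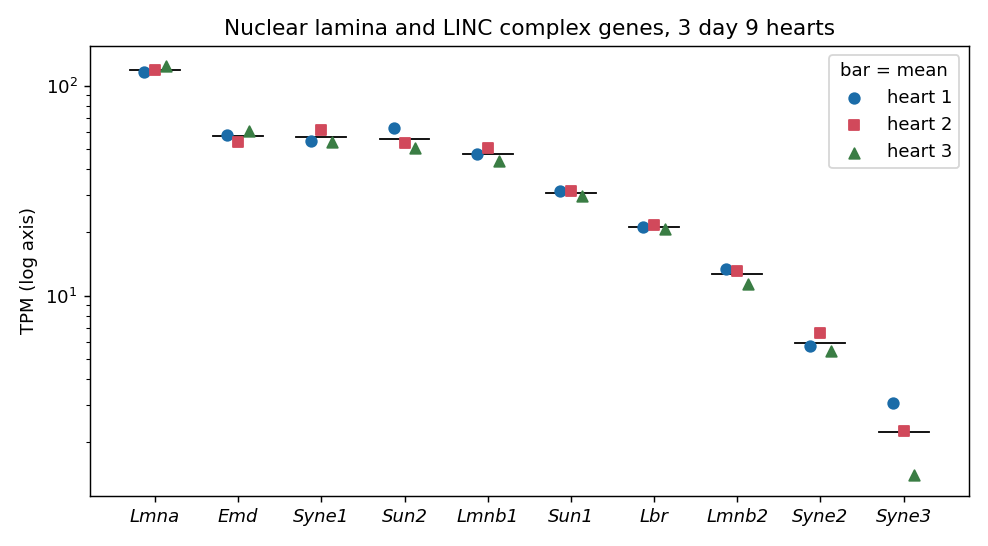
TPM of each of the 10 members in each heart (log axis, points by heart, bar at the mean of 3 hearts), ordered by mean. Lmna sits at 116 to 124 TPM above all others, Emd, Syne1 and Sun2 overlap one another, Lmnb1 (43.9 to 50.4 TPM) overlaps Sun2 but lies below Emd and Syne1, and Syne3 is lowest with the widest spread, from 3.09 to 1.39 TPM.

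Lmna (Entrez gene ID 16905, chromosome 3, 88481148 to 88509932, minus strand of GRCm38) was the highest member. It had 2651, 2664 and 2982 counts in hearts 1, 2 and 3, which gave levels of 116, 119 and 124 TPM, a mean of 119 ± 3.94 TPM. The hearts lay close together, and Lmna ranked at 1234 of the 18038 genes by mean TPM.

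The B-type lamin Lmnb1 (ID 16906, chromosome 18, 56707813 to 56753424, plus strand) had 1187, 1297 and 1177 counts, or 47.4, 50.4 and 43.9 TPM. Lmnb2 (ID 16907, chromosome 10, 80901363 to 80918490) had 400, 401 and 364 counts, or 13.4, 13.04 and 11.4 TPM. Every heart had Lmna above Lmnb1 and Lmnb1 above Lmnb2, with no overlap of ranges. Pairs of genes were compared within each heart by the edgeR quasi-likelihood test, in which each member in turn was the reference for all 12957 other detected genes and p-values were adjusted over them. The background of such a comparison is high, because most genes differ from any one gene: 96.9% of genes differed from Lmna (8.05% higher and 88.9% lower). The share was 94.3% from Lmnb1, 91.9% from Lmnb2, 92% from Lbr, 93.3% from Emd, 93.1% from Sun1, 92.9% from Sun2, 92.8% from Syne1, 92.2% from Syne2 and 88.4% from Syne3. A called pair is therefore the usual outcome. Every gene in a fit meets the same reference counts, so edgeR p-values of all pairs, here and below, can be too small. The intervals come from the same fits. The log2 ratio of Lmnb1 to Lmna was -1.33 (95% interval -1.53 to -1.14, edgeR adjusted p = 2.01e-11), a 2.52-fold lower level. Lmnb2 was 9.45-fold below Lmna (log2 ratio -3.24, 95% interval -3.47 to -3.01, edgeR adjusted p = 1.09e-16). Between the B-type genes, Lmnb2 was 3.75-fold below Lmnb1 (log2 ratio -1.91, 95% interval -2.10 to -1.72, edgeR adjusted p = 3.03e-11). In limma with the error of each gene estimated separately, the adjusted p was 6.17e-07 for Lmnb1 to Lmna. It was 1.04e-08 for Lmnb2 to Lmna and 6.17e-07 for Lmnb2 to Lmnb1 in that limma fit.

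Of the summed lamin level, Lmna held 66.6% ± 2.18, Lmnb1 26.3% ± 1.63 and Lmnb2 7.03% ± 0.622. The log2 ratio of Lmna to both B-type genes together was 0.93, 0.90 and 1.16 in hearts 1, 2 and 3. Its mean of 1.00 ± 0.143 corresponds to about 2.00 times as much A-type as B-type lamin RNA. An exact sign-flip test over 3 hearts cannot go below 0.25, so this and the other ratios of sums carry no test.

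Lbr (ID 98386, chromosome 1, 181812036 to 181842401, minus strand) tethers heterochromatin and B-type lamins to the membrane, and also has sterol reductase activity. It had 668, 698 and 697 counts, or 21.2, 21.6 and 20.6 TPM, the smallest relative spread of the members at a coefficient of variation of 2.23%. In mammalian nuclei Lbr and A-type lamins are known as alternative tethers of heterochromatin. Lbr was 5.62-fold below Lmna (log2 ratio -2.49, 95% interval -2.68 to -2.30, edgeR adjusted p = 4.76e-16) in 3 of 3 hearts. A stretch of 440 exon bases of Lbr (9.24% of its exon bases) overlaps Dnah14 on the opposite strand in GENCODE M21, but that gene had 0, 0 and 1 counts.

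Emd (ID 13726, chromosome X, 74254672 to 74261563, plus strand) encodes emerin, a LEM domain protein that binds lamins and the DNA-bridging protein encoded by Banf1. It had 795, 755 and 896 counts, or 58.2, 53.7 and 60.9 TPM. Its counts, like those of Syne2 in heart 2, were deposited as fractions, and how the fractions arose was not tested. Emd was 2.06-fold below Lmna (log2 ratio -1.05, 95% interval -1.23 to -0.86, edgeR adjusted p = 4.31e-10), and the ranges of the hearts did not overlap. Emd is the shortest member, and without a length correction it was 3.40-fold below Lmna (log2 ratio -1.76) and ranked at 7 rather than 2 among the members.

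Sun2 (ID 223697, chromosome 15, 79724068 to 79742536) and Sun1 (ID 77053, chromosome 5, 139200556 to 139249839, plus strand) encode the SUN proteins of somatic cells, which hold nesprins from inside the nuclear envelope. Sun2 had 2113, 1855 and 1815 counts, or 62.7, 53.6 and 50.2 TPM, highest in heart 1. Sun1 had 1124, 1135 and 1129 counts, or 31.6, 31.5 and 29.9 TPM, nearly level across hearts. Sun2 exceeded Sun1 by 1.79-fold (log2 ratio 0.84, 95% interval 0.68 to 0.99, edgeR adjusted p = 1.11e-05), with log2 ratios of 0.99, 0.77 and 0.75 in the 3 hearts. With longest transcript lengths the log2 ratio was 0.89, and without a length correction 0.77.

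Syne1 (ID 64009, chromosome 10, 5020192 to 5550812) encodes nesprin-1, whose giant form reaches actin and whose short forms in muscle consist mainly of the part next to the nucleus, where they recruit centrosomal proteins such as those encoded by Akap9 and Pcm1 and, in cardiomyocytes, Akap6. It had 2987, 3817 and 3186 counts, the most of any member, or 54.8, 61.5 and 54.1 TPM. Syne2 (ID 319565, chromosome 12, 75817989 to 76111547, plus strand), encoding the giant nesprin-2, had 1131, 1346 and 1143 counts, but only 5.75, 6.66 and 5.43 TPM per length. Both genes were highest in heart 2. Syne3 (ID 212073, chromosome 12, 104925441 to 105010098, minus strand), whose product nesprin-3 binds plectin and so intermediate filaments, had 147, 110 and 68 counts, or 3.09, 2.26 and 1.39 TPM.

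Of the summed nesprin level per length, Syne1 held 87.4% ± 1.35, Syne2 9.13% ± 0.290 and Syne3 3.45% ± 1.30. Syne2 was 9.84-fold below Syne1 (log2 ratio -3.30, 95% interval -3.57 to -3.02) and Syne3 27.2-fold below it (log2 ratio -4.76, 95% interval -5.19 to -4.33), in 3 of 3 hearts each. Because every row shares the reference gene, edgeR p-values can be too small here (adjusted p = 2.97e-119 and 1.25e-102). With the error of each gene estimated separately in limma, the adjusted p-values were 6.71e-08 and 1.65e-07. Syne3 was 2.76-fold below Syne2 (log2 ratio -1.46, 95% interval -1.82 to -1.11, edgeR adjusted p = 5.79e-16; limma with separate errors, adjusted p = 0.000478), and the log2 ratio was -0.90, -1.56 and -1.96 in hearts 1, 2 and 3. The size of the Syne1 ratios depends on the length assigned to Syne1: with the longest annotated transcripts the log2 ratio of Syne2 to Syne1 was -1.10 and that of Syne3 to Syne1 was -2.57, and without a length correction they were -1.46 and -4.98. Syne3 to Syne2 moved as well, to -3.52 (11.4-fold) without a length correction.

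The length of a gene as the authors' FPKM treats it can be recovered from its count and FPKM. For Syne2 it was 21653, 21681 and 21673 bases in hearts 1, 2 and 3, or 99.9% of the longest coding transcript in GENCODE M21 (21704 bases). For Syne1 it was 5996, 6662 and 6063 bases, or 21.7% of the longest coding transcript (27908 bases). Such a short share was rare among detected genes: 0.406% of those with an annotated length had a lower one, and their median share was 94.1%. Lmna, at 2517, 2406 and 2483 bases (78.7%), lay between the lamin A transcript of 3156 bases and the lamin C transcript of 2021 bases. The other members lay between 93.4% and 99.2%. Syne1 is listed with 44 transcript models in the deposited table. GENCODE M21 has 5 coding transcripts of it, of 27908, 6990, 3894, 3443 and 2726 bases. The transcript of 27908 bases (146 exons, start at 5550678) and that of 3443 bases (17 exons, start at 5069063) end at the same stop codon and so share the KASH end printed above. The transcript of 6990 bases starts at the upstream end and stops before it. The implied length is the authors' estimate over transcripts, and which of them were present was not tested.

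**Figure D2:**
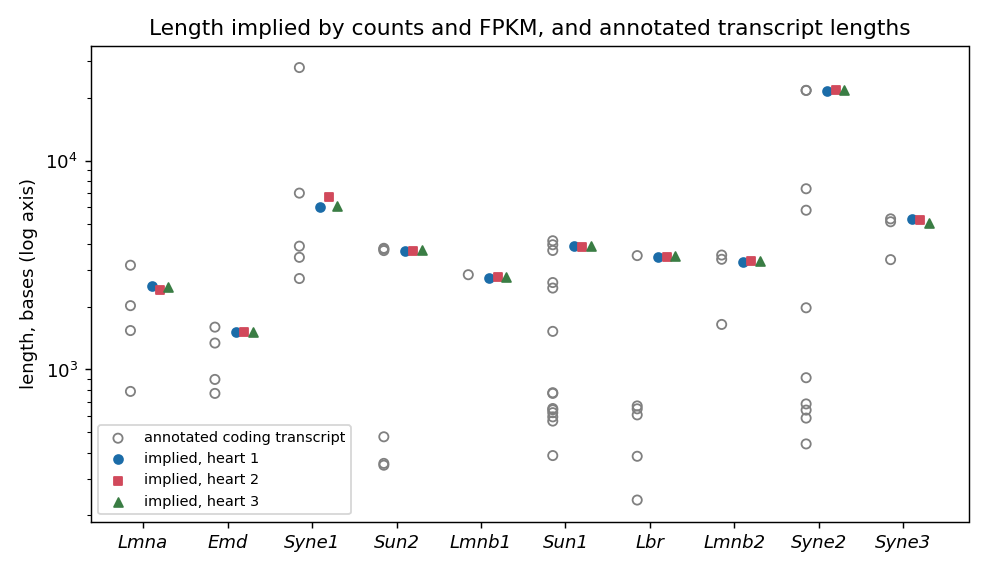
Length in bases (log axis) implied by counts and FPKM in each heart (filled points) and lengths of annotated coding transcripts (open circles) for the 10 members. Syne1, at 5996 to 6662 bases, is far below its longest transcript, whereas Syne2 sits at its longest.

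Since the long and the 17-exon transcript of Syne1 start at different places, windows of 300 bases around both places are printed from RefSeq (GRCm38.p6, minus strand). The upstream window is set on the start of the 6990-base transcript, at 5550692, and also spans that of the longest one. Capitals mark E-boxes, CANNTG on either strand, the site of basic helix-loop-helix factors including those of muscle. The upstream window is chr10:5550643-5550942 and the internal window is chr10:5069014-5069313.
Syne1 upstream: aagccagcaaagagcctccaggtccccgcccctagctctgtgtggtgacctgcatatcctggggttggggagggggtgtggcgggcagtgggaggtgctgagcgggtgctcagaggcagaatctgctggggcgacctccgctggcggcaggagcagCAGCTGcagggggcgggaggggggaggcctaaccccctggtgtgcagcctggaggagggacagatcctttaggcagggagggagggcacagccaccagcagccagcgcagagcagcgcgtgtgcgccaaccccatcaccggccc
Syne1 internal: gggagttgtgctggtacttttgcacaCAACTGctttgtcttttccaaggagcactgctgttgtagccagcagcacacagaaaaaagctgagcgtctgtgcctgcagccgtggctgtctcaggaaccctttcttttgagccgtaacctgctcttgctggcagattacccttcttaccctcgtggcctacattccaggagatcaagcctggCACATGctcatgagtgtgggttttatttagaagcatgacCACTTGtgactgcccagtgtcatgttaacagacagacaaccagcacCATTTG
The upstream window had a GC content of 69.0% and 1 E-box, and the internal window 50.3% and 4 E-boxes. Over all 32851 RefSeq windows of that length, the median GC content was 52.7% and 72.3% held at least 1 E-box. The share of windows with 4 E-boxes was not computed, so the difference in number between the windows has no background. TATAAA (in 13.6% of all windows) and a loose MEF2 motif, CTA and TAG with 4 bases between (3.69%), had 0 matches in both printed windows on either strand. RefSeq holds a further start window of Syne1, chr10:5488265-5488564, which is not printed. It had a GC content of 40.3%, 1 E-box, 1 TATAAA match and 0 MEF2 matches. These are matches of letters only.

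The members were ordered by mean level as Lmna, Emd, Syne1, Sun2, Lmnb1, Sun1, Lbr, Lmnb2, Syne2 and Syne3. Of the 45 pairs, 41 differed. Without heart 1, which held the lung markers, 40 differed, and the log2 ratios by role were -1.34 for Lmnb1 to Lmna, -2.50 for Lbr to Lmna, 0.77 for Sun2 to Sun1 and -3.33 for Syne2 to Syne1. Among the 9 pairs of neighbours in the order, 6 differed and 3 did not: Syne1 and Emd (log2 ratio 0.02, 95% interval -0.22 to 0.26, edgeR adjusted p = 0.879), Sun2 and Syne1 (-0.08, 95% interval -0.32 to 0.17, edgeR adjusted p = 0.559), and Lmnb1 and Sun2 (-0.23, 95% interval -0.47 to 0.01, edgeR adjusted p = 0.0632). Sun2 and Emd were also not distinguished (-0.06, edgeR adjusted p = 0.648). The order within Emd, Syne1 and Sun2 is thus not resolved, nor is that of Sun2 and Lmnb1. From Lmnb1 downwards each step passed: Sun1 was 1.52-fold below Lmnb1 (edgeR adjusted p = 2.28e-06), Lbr 1.46-fold below Sun1 (edgeR adjusted p = 4.63e-05), Lmnb2 1.68-fold below Lbr (edgeR adjusted p = 3.71e-05), and Syne2 2.12-fold below Lmnb2 (edgeR adjusted p = 5.39e-08). Without a length correction Syne1 lay above Emd (log2 ratio 2.03, edgeR adjusted p = 1.32e-58) and Sun2 below Syne1 (-0.78, edgeR adjusted p = 1.64e-09). In the same setting Lmnb1 lay below Sun2 (-0.66, edgeR adjusted p = 3.06e-06), Syne2 lay above Lmnb2 (log2 ratio 1.63), and Sun1 and Lmnb1 were not distinguished (-0.11, edgeR adjusted p = 0.168). With longest transcript lengths Syne1 lay below both of its neighbours, with log2 ratios of -2.10 to Emd and 2.09 for Sun2 over Syne1. Lmnb1 passed below Sun2 without heart 1 (-0.14, edgeR adjusted p = 0.0436).

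**Figure D3:**
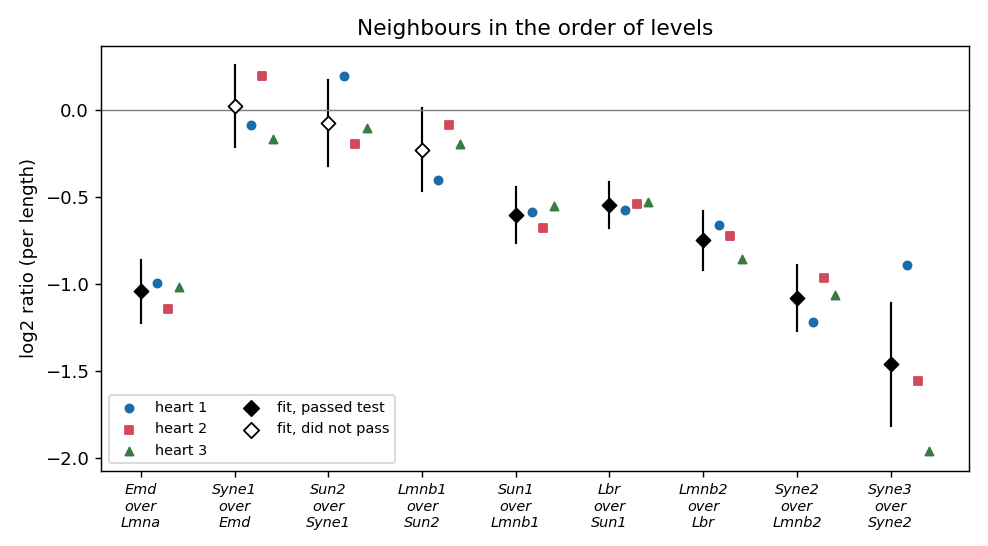
Log2 ratio of each member to the next higher one (diamond, fitted value with 95% interval, filled where the pair differed), with the ratio in each heart beside it. The intervals of Syne1 over Emd, Sun2 over Syne1 and Lmnb1 over Sun2 reach 0, and the other 6 lie below it.

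Nesprins and SUN proteins assemble with each other, and their summed RNA levels were compared. Nesprin genes summed to 65.0 ± 4.86 TPM and SUN genes to 86.5 ± 7.18 TPM, a log2 ratio of -0.57, -0.27 and -0.39 in the 3 hearts and of -0.41 ± 0.147 on average. This direction rests on gene lengths: from CPM it was 0.60, and with longest transcript lengths it was -2.0003.

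Variation between hearts was tested against the spread of genes of similar abundance. In the edgeR goodness-of-fit test over 12958 detected genes, 216 varied between hearts, or 1.67%, and 0 of the 10 members did. At an unadjusted p under 0.05, 1 member passed, Syne3, against 801 genes in all, or 6.18%. The edgeR adjusted p of Syne3 was 0.354. The ratio of the highest to the lowest heart was 2.22 for Syne3, 1.25 for Sun2 and 1.23 for Syne2. The other members had ratios from 1.05 (Lbr) to 1.18 (Lmnb2), and the median of all detected genes was 1.18. The biological coefficient of variation fitted at the abundance of Syne3 was 15.9%, and 9.91% to 11.6% for the other members. Syne3 was highest in heart 1 and lowest in heart 3. Besides the lung markers, the summed levels of the erythroid, adipocyte, myeloid and nerve and glia lists were also highest in heart 1. The thymus list held 0.332, 0.200 and 0.251 TPM in hearts 1, 2 and 3, with none of its genes detected and too few counts to order the hearts. Erythroid markers summed to 5816, 5662 and 3494 TPM in hearts 1, 2 and 3, where Alas2 passed the variation test (edgeR adjusted p = 0.0166). Adipocyte markers summed to 366, 142 and 249 TPM, and all 4 detected genes of that list passed, led by Ucp1 of brown fat (301, 120 and 201 TPM, edgeR adjusted p = 1.15e-06). Myeloid markers summed to 228, 183 and 187 TPM, and nerve and glia markers to 39.0, 11.8 and 23.0 TPM. Smooth muscle and pericyte markers were lowest in heart 1, with sums of 673, 1234 and 1510 TPM, and Acta2 and Tagln passed. The skeletal muscle list summed to 28.0, 75.6 and 132 TPM, nearly all from Acta1 (24.7, 74.2 and 130 TPM), which passed. Myh1 (1, 1 and 1 counts) and Myh2 (3, 0 and 2 counts) of that list were almost without reads. The sum is thus mostly Acta1 and is no measure of skeletal muscle in the samples. Tnnt3 of that list was instead highest in heart 1 (3.21, 1.38 and 2.32 TPM) and was not detected in every heart. The part of these cell types in the Syne3 values was not tested.

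**Figure D4:**
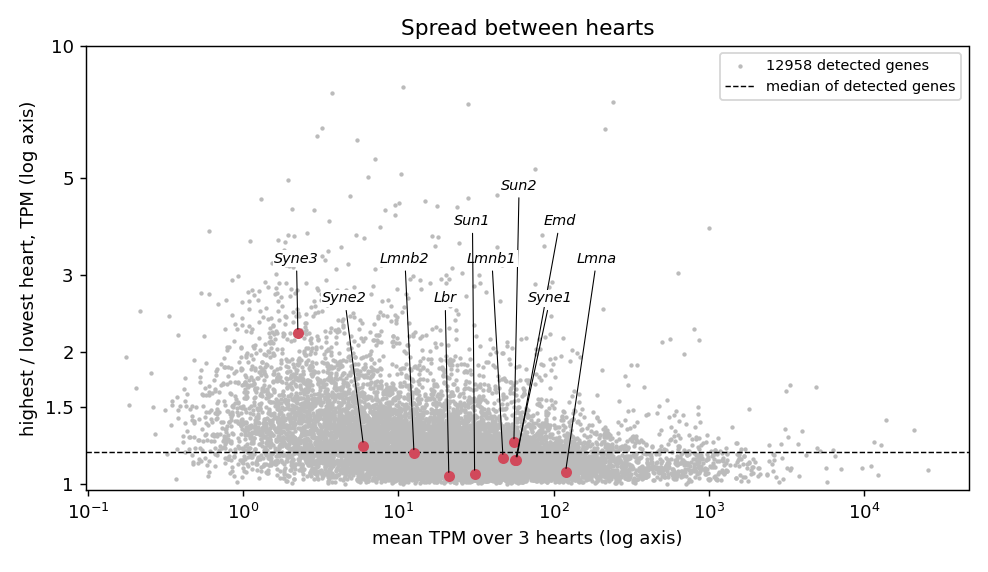
Ratio of the highest to the lowest heart in TPM against mean TPM (both log axes) for all detected genes (grey, 4 genes above 10 not shown) and the 10 members (red); the dashed line is the median of detected genes. Syne3 lies at 2.22, and the other members at 1.25 or below.

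B-type lamin and Lbr RNA are known to be high in dividing cells, and the heart still grows by some cell division at this age. All 12 proliferation genes were detected, led by Ccna2 (61.5, 80.7 and 50.3 TPM), Birc5 (54.9, 56.4 and 43.2 TPM) and Mki67 (37.1, 47.7 and 29.0 TPM). Their sum was 334, 415 and 275 TPM in hearts 1, 2 and 3. Lmnb1 (47.4, 50.4 and 43.9 TPM) was likewise highest in heart 2 and lowest in heart 3. The same order held for Syne2 (5.75, 6.66 and 5.43 TPM, and 63.7, 72.2 and 60.9 CPM), so it was not particular to Lmnb1. Syne1 had that order in TPM (54.8, 61.5 and 54.1), but in CPM it was lowest in heart 1 (168, 205 and 170). Lbr had that order in TPM by a small margin, but in CPM it was highest in heart 1 (37.6, 37.4 and 37.1), and Lmnb2 was highest in heart 1 in both units. In the variation test 0 of these genes passed, and 3 hearts are too few for a correlation.

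Other genes of the nuclear envelope were compared with Lmna. Of all genes tested, 88.9% were lower than Lmna and 8.05% higher, so a gene below Lmna is the usual outcome in each list that follows. Of 16 inner membrane partners in the table, all detected, 1 was higher than Lmna, 14 were lower and 1 was not distinguished. The higher one was Banf1, encoding the DNA-bridging partner of LEM proteins, at 169 ± 8.27 TPM. Mlip, a muscle-enriched lamin-interacting protein, was at 105 ± 8.99 TPM (log2 ratio to Lmna -0.18, edgeR adjusted p = 0.0732). Tmpo, which encodes LAP2 proteins, was at 92.6 ± 9.86 TPM. The median of this list was 25.5 TPM, and 19.1 TPM over all detected genes.

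Lamin processing genes were all below Lmna (6 of 6), as were 88.9% of all genes tested. Fnta, a farnesyltransferase subunit, was at 55.2 ± 1.27 TPM, Narf, which binds prelamin A, at 50.4 ± 3.82 TPM, and Zmpste24, the protease that matures prelamin A, at 28.9 ± 1.30 TPM. Of 15 nuclear pore genes, 15 were below Lmna, the highest being Tpr, of the nuclear basket, at 53.7 ± 4.85 TPM, Nup62 at 28.7 ± 1.55 and Nup93 at 28.2 ± 1.97 TPM.

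The cytoskeletal and centrosomal partners of nesprins were all detected, and 10 of 11 were below Lmna, against 88.9% of all genes tested. The exception was Klc1, a kinesin light chain, at 136 ± 5.42 TPM (log2 ratio to Lmna 0.20, edgeR adjusted p = 0.0428). Bicd2, a dynein adaptor, was at 71.9 ± 5.84 TPM and Kif5b, a kinesin heavy chain, at 61.5 ± 11.2 TPM. In the variation test, 0 genes of this list passed, and likewise 0 of each other pathway list.

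The SUN and KASH genes outside the member list were low. Sun3, known from testis, had 23, 30 and 26 counts, or 2.55 ± 0.352 TPM, and Lrmp, which encodes a KASH-like protein of lymphoid cells, 33, 33 and 35 counts, or 1.65 ± 0.0745 TPM. Spag4 (12, 17 and 11 counts), Syne4 (12, 5 and 5 counts) and Ccdc155, also known as KASH5 (5, 0 and 1 counts), were below 1 CPM in at least 1 heart. A count of 0 allows up to 3 counts, for counting error only.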

How the data were processed

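RNA of 3 wild-type hearts was measured by sequencing of DNBSEQ libraries from Trizol-extracted total RNA, per the labels' protocols. The authors deposited estimated counts per gene and FPKM per gene, per the file headers. The submitters' processing notes list HISAT and GRCm38.p6. The tool that counted reads, its annotation and whether it used strand: not given in the sources used here. Counts were whole within 0.005 for 87.5% to 87.6% of genes, so they were treated as estimated counts and rounded for tests. One line without values and 2 columns of means were left out. Gene length was that implied by count and FPKM (median of 3 hearts), and strands are from GENCODE M21, since the table gives the opposite strand for 3 members. Chi-square statistics per degree of freedom between hearts were 15.3, 24.9 and 10.1, so each heart counted as 1 sample.

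Tests used edgeR 4.0.16 in R 4.3.3, with limma 3.58.1 and DESeq2 1.42.0 as alternatives: the quasi-likelihood test of gene pairs with heart as a block, and goodness of fit with trended dispersion and TMM library sizes. The threshold was an adjusted p (Benjamini-Hochberg) of 0.05. Both tests were tested on simulated data, where a shared reference shifted the p-values of all its pairs together, so limma with separate errors was added. The members and lists were chosen with earlier results of these data known. Named were every member, and of each pathway list the 3 genes of highest mean TPM, any that passed the variation test and those below 1 CPM; of marker lists, the 2 highest were eligible and are given where a result touches them. Dnah14 was named after its values were seen. Nuclear envelope lists held 17, 6, 6, 11 and 15 genes and proliferation 12. Lmnb1 is named without sequence, and RefSeq windows were found for 9 of 10 members.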

Additional observations from a re-analysis of the deposited data

How the results depend on the processing

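Of the 45 pairs of members, 41 passed in the reported fit and 39 to 41 when 1 heart was left out, and 41 or 42 under each other alternative run (other lengths, no replicate block, DESeq2, limma, limma with separate errors and no filter on low counts). The fit with no replicate block gave 41, and with only 1 group of hearts no other pairing exists. The comparisons of lamins, Lbr, Emd, SUN genes and nesprins by role kept direction and call under every alternative run, but not always size. The log2 ratio of Syne2 to Syne1 was -3.30 in the reported fit, -1.10 with longest transcript lengths and -1.46 without a length correction. That of Syne3 to Syne1 was -4.76 in the reported fit and -2.57 with longest transcript lengths. Among neighbours, the log2 ratio of Syne1 to Emd was -2.10 with longest transcript lengths, 2.03 without a length correction, -0.020 with the length of each heart separately and -0.020 in both limma fits, and -0.14 to 0.12 when 1 heart was left out. Sun2 over Syne1 was 2.09 with longest transcript lengths, -0.78 without a length correction and -0.22 to 0.053 when 1 heart was left out, and Syne2 over Lmnb2 was 1.63 without a length correction. Without a length correction, Lmnb1 over Sun2 passed (-0.66), Sun1 over Lmnb1 did not (-0.11), and the ratios of Emd to Lmna (-1.76) and Syne3 to Syne2 (-3.52) moved by over 1.5 times. Lmnb1 over Sun2 also passed without heart 1 (-0.14). In CPM the members summed to 738 rather than 409.5 in TPM. Lmna to both B-type genes was 0.78 in CPM and 0.70 with longest transcript lengths, Lbr to Lmna -2.01 and -2.16, and nesprins to SUN genes 0.60 and -2.0003. Genes varying between hearts numbered 76 to 111 when 1 heart was left out, where the test held fewer samples, and 214 to 264 otherwise, with 0 members among them in the reported fit. Syne3, with 68 to 147 counts, is the member whose level depth limits most.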
